A study of Mus musculus with 16 samples.

Results

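The control channels of the 16 arrays describe untreated mouse hepatocytes in culture, and drug effects are not the subject here. Some control readings differed with the drug whose RNA shared the array, as given further below. There, partner RNA and slide cannot be told apart. Every array carried RNA of drug-treated cells in 1 dye and RNA of untreated control cells in the other, and only the control dye is used here. This was Alexa 555 (green) for controls 1 to 4 and Alexa 647 (red) for controls 5 to 8. Each control was measured on 2 arrays, beside SQ1-treated RNA on one and beside pravastatin-treated RNA on the other, and its 2 channels were averaged first. The 2 arrays are matched by the control number in the deposited names; whether they hold the same culture or RNA extract is not given in the sources used here. The members are therefore 8 numbered controls of 24 numbered samples in the series, read from 16 of its 32 channels.

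All cells were primary hepatocytes of male C57Bl/J mice, kept in Williams Medium E. The control cells received no drug and were lysed with the treated cells, 96 h after plating. The partner cells on the same arrays were given 100 µM SQ1 or 30 µM pravastatin at 48 h and kept with it for 48 h. SQ1 is squalestatin 1, whose dose unit is given as labelled and is uncertain. The series calls the 8 controls biological replicates; whether they came from separate mice or separate days is not given in the sources used here, so p-values below measure spread between these samples, which may be technical.

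Hepatocytes are the main cells of the liver. They make most proteins of blood plasma, remove ammonia through the urea cycle, store and release glucose, build cholesterol and bile acids, and oxidise drugs through cytochromes P450. In the liver these tasks are divided along the lobule between periportal and pericentral cells. When hepatocytes are taken out of the liver and spread on a dish, they are known to gain cytoskeletal transcripts and to lose parts of their metabolic programme over days. No fresh liver was measured in this series, so none of the levels below is a change from the liver.

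Brightness is the median spot intensity minus the local background, ranked within each channel as a percentile among the 27234 named probes. It depends on the probe as well as on the transcript, so that ranks order probes and give no molar level or fold between genes. The median spot intensity was 110 to 145.5 across the 16 channels over a background of 28 to 38, and 60.3% to 68.7% of spots were marked well above background. A gene was counted for a control where both of its arrays carried that mark. Of 20659 genes on the array, 13474 (65.2%) were well above background in all 8 controls, 1559 in some and 5626 (27.2%) in none. Single controls had 13894 to 14463 such genes. Levels of a control on its 2 arrays correlated at 0.998 to 0.999 across genes, and 2 controls of the same dye at 0.989 to 0.998. The lowest rank correlation between any 2 controls was 0.983, and 61 genes were among the 100 brightest of every control.

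The brightest transcripts were those of secreted plasma proteins. Of the 25 brightest genes, 13 belonged to a list of 34 plasma protein genes measured. Serpina1a, which encodes an alpha-1-antitrypsin that inhibits neutrophil elastase, ranked 1, and its relatives Serpina1c, Serpina1e and Serpina1d ranked 2, 4 and 14. Alb, which encodes albumin, ranked 5. Its level on the log2 scale of normalized intensity was 18.26, 18.18, 18.19 and 18.13 in controls 1 to 4, and 18.71, 18.71, 18.71 and 18.60 in controls 5 to 8. The green and red values of Alb do not overlap, but dye and control number cannot be told apart, so that the dyes are not compared for any gene. Hp (haptoglobin, which binds free haemoglobin) ranked 6 and Ahsg (fetuin-A) 9. Gc (vitamin D binding protein) ranked 11, Trf (transferrin, the iron carrier) 12, Fgb (fibrinogen beta chain) 13, Cp (ceruloplasmin, the copper carrier) 17 and Hpx (hemopexin, the haem carrier) 20. C3, the central complement component, ranked 22.

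The rest of the 25 brightest were of several kinds, among them the following. Mup20, Mup19, Mup17, Mup3 and Mup18 encode major urinary proteins, which carry pheromones in mice. Mt1 and Mt2 are metallothioneins that bind zinc and copper. Fth1 stores iron, Selenop carries selenium in plasma, Rpl10 is a ribosomal protein and Tmem176b a membrane protein. The Serpina1 and Mup families hold near-identical copies that a probe may not separate, so that the rank of a single copy is uncertain. Limma's F test among controls of 1 dye, described below, called 4 of these 25 genes, Trf, Cp and C3 among them. Over all tested genes it called 9469 of 14492 (65.3%), and 556 of the 1000 brightest.

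**Figure D1:**
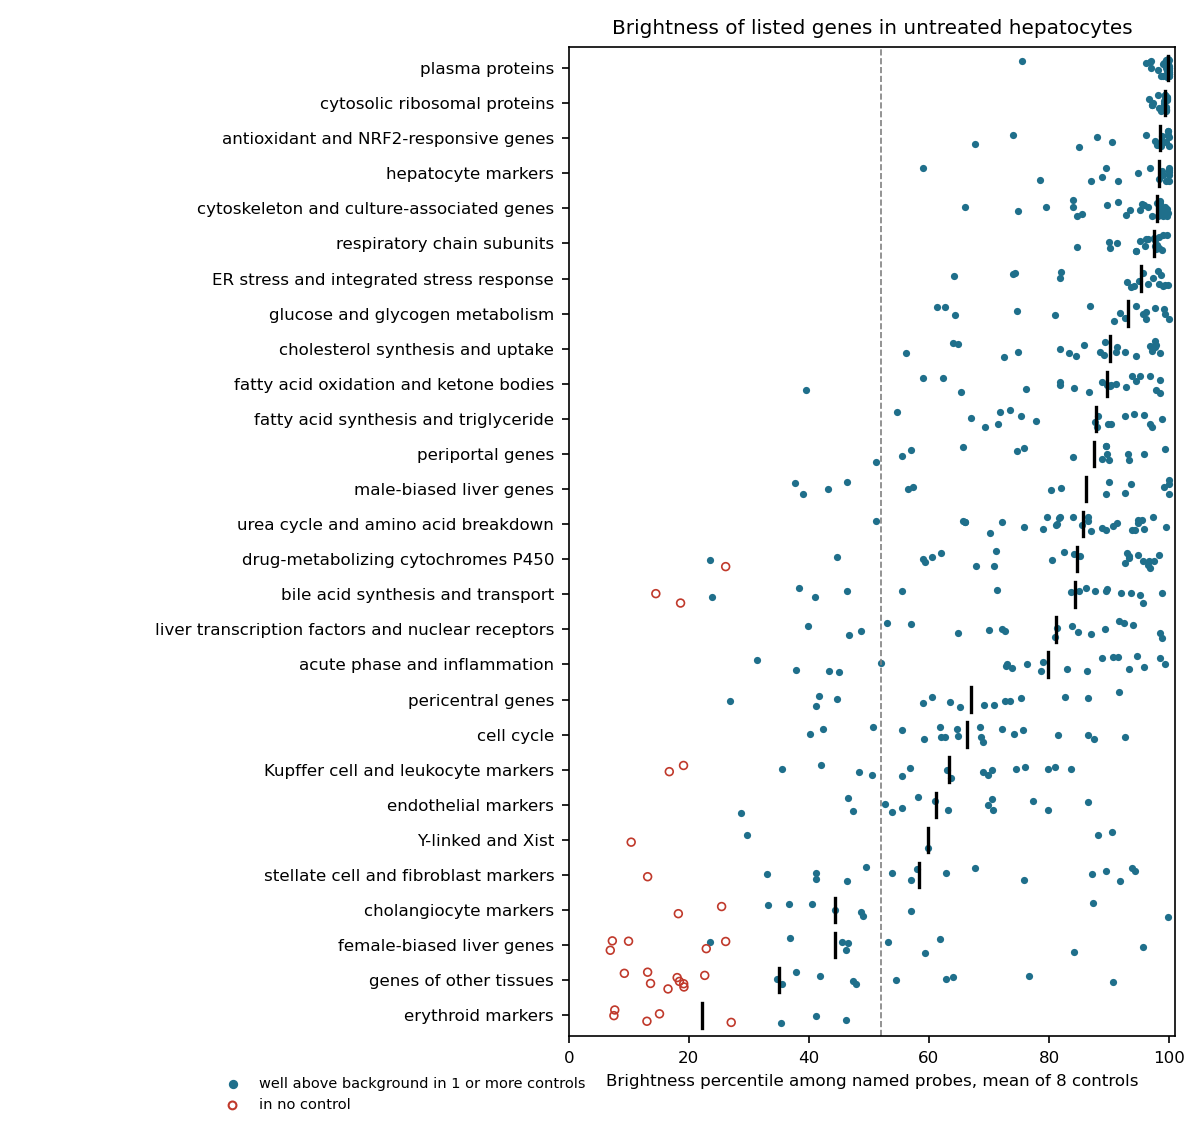
Each row is a gene list and each point a gene, placed by its brightness percentile among named probes, averaged over the 8 controls; filled points were well above background in 1 or more controls, open points in none. Black bars mark list medians and the dashed line the median of all genes (52.2); plasma and ribosomal proteins lie at the right edge, and erythroid genes and genes of other tissues at the left.

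By group, the plasma protein list had a median percentile of 99.8, beside 52.2 for all genes, and all 34 members were well above background in all 8 controls. Itih1, an inter-alpha-trypsin inhibitor chain, was its dimmest member at 75.5. The 30 ribosomal protein genes had a median of 99.3 and a range of 96.6 to 99.7, and the 22 respiratory chain subunits a median of 97.5. Housekeeping genes ranked almost as high as the liver's secreted products.

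Metabolic genes filled the range just below. Glucose and glycogen metabolism (17 genes) had a median of 93.1, and Ugp2 (UDP-glucose synthesis) and Fbp1 (a gluconeogenic phosphatase) were among its brightest members. G6pc, the last step of glucose release, lay lower, at 64.4, and Pck1, the first committed step of gluconeogenesis, at 74.7. Cholesterol synthesis and uptake (23 genes) had a median of 90.2. Its brightest members were Msmo1 at 98.5, Idi1 at 97.8 and Fdps at 97.7, all sterol or isoprenoid enzymes. Fatty acid oxidation and ketone bodies (22 genes) had a median of 89.6, and fatty acid and triglyceride synthesis (19 genes) 87.8, led by Scd1 (a fatty acid desaturase) at 98.7. Urea cycle and amino acid breakdown (30 genes) had a median of 85.6, with Bhmt (betaine-dependent methionine synthesis) at 99.4 and Ass1 (urea cycle) at 95.8.

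Of 25 genes of the cytochrome P450 list, which includes the reductase Por, 23 were well above background in all 8 controls, with a median of 84.6 over the list. Cyp3a11, a major drug-oxidising enzyme, led at 98.2, followed by Cyp2c70 at 97.4, which makes muricholic acids, and Cyp3a13 at 96.8. Cyp2e1 (59.0) and Cyp1a2 (60.5), both abundant in pericentral hepatocytes of the liver, lay near the median of all genes. Bile acid genes divided more sharply. Slc10a1, the main bile acid uptake carrier, stood at 98.8 and Abcb4, a phospholipid exporter, at 95.6. The probes of Slc10a1 disagree: its rank rests on the brighter, with a mean log2 level of 16.52 beside 9.77 for the other. Cyp7a1, the rate-limiting enzyme of bile acid synthesis, and Slc51a, a basolateral exporter, were well above background in none of the 8 controls, and Cyp8b1, the sterol 12-alpha-hydroxylase, in 2. On single arrays Cyp7a1 carried the mark in 2 of 16 control channels.

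All 20 liver transcription factors and nuclear receptors were well above background in all 8 controls. Their median was 81.1, and Hnf4a, a central regulator of the hepatocyte programme, led at 98.8, followed by Cebpb at 98.5 and Nr1h4, the bile acid receptor, at 94.0. Cebpa stood at 72.7, and Nr1i3, a receptor for xenobiotics, at 53.0. The label was checked against 17 hepatocyte markers, all of them well above background in all 8 controls, with a median of 98.3. The lowest were Cyp2e1 at 59.0 and Asgr2, a subunit of the asialoglycoprotein receptor, at 78.5.

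Genes of the lobule's ends were both present. The 16 periportal genes had a median of 87.5 and the 16 pericentral genes 67.0. Hsd17b13, a lipid droplet enzyme, led the first list at 99.4, and Ahr, the dioxin receptor, the second at 91.7. Both were read from their brighter probe, with mean log2 levels of 17.10 beside 8.07 for Hsd17b13 and 13.98 beside 7.54 for Ahr. Glul, the glutamine synthetase that marks pericentral cells, stood at 86.6, and Axin2, a Wnt target, was well above background in 1 control. These ranks come from different probes and do not measure a share of cells.

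The sex given in the labels was checked with Y-linked genes. Ddx3y (90.5), Eif2s3y (88.2) and Uty (59.9) were well above background in all 8 controls, and Xist, the transcript of the inactive X chromosome, was so in none. Genes known to be higher in male liver had a median of 86.2 (16 genes), and genes known to be higher in female liver 44.4 (15 genes). Of the latter, 5 were well above background in no control, among them Cyp2b13, Sult3a1, Hao2 and Cux2, while Cyp2a4, a steroid hydroxylase, stood at 95.6. Among the male-biased genes, Elovl3 (37.7) and Hsd3b5 (39.0) were dim.

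Cytoskeletal and culture-associated genes had a higher median than any of the metabolic lists. It was 98.0 over 35 members, and 22 of them were among the 1000 brightest genes. Anxa5 (a membrane-binding annexin, 99.8), Actg1 (gamma actin, 99.7) and Krt18 (a hepatocyte keratin, 99.6) led, and Vim, an intermediate filament protein of mesenchymal cells, stood at 98.9. The 17 antioxidant genes had a median of 98.5 and the 18 genes of the endoplasmic reticulum and integrated stress responses 95.4, led by the chaperone Hspa5 at 99.8. All 20 cell cycle genes were well above background in all 8 controls, with a median of 66.3. Pcna, the replication clamp, stood at 92.6, Cdkn1a, a cell cycle inhibitor, at 87.5, and Mki67, a proliferation marker, at 68.6. Of 21 acute phase and inflammation genes, 20 were well above background in all 8 controls. Lcn2 (lipocalin) stood at 99.4 and the chemokine Ccl2 at 98.5, while Tnf was above background in 4 controls.

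Lists of markers of other liver cells had medians in the middle of the ranks. Kupffer cell and leukocyte markers had a median of 63.4, with 15 of 18 well above background in all 8 controls. The brightest were Itgam (83.7), Vsig4 (81.0) and Cd14 (79.8), and 2 were above background in none, S100a8 (neutrophils) among them. The rank of Itgam rests on 1 of its 3 probes, with a mean log2 level of 12.73 beside 6.69 and 6.66 for the others. Endothelial markers had a median of 61.2 (14 of 15 in all 8 controls), stellate cell and fibroblast markers 58.4 (15 of 17) with Col3a1 at 94.4 and Dcn at 93.8, and cholangiocyte markers 44.4 (7 of 11). Spp1, a cholangiocyte marker that other cells also express, was the brightest of that list at 99.8, followed by Sox9 at 87.4. Of 8 erythroid genes, 5 were above background in none, among them Hbb-bs and Hbb-bt. Of 20 genes of other tissues, 9 were above background in none, and the brightest was Amy2a5 at 90.7, an amylase gene with near-identical relatives. In bulk RNA, fewer cells of a type and less RNA per cell cannot be told apart, and the share of these cells in the cultures is not known.

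The 8 controls were then compared with each other. A moderated F test in limma over 6 contrasts among controls of 1 dye, with the spread between the 2 arrays of a control number as its error, called 9469 of 14492 genes (65.3%) at an adjusted p of 0.05. Such a call says that control numbers differed by more than the 2 arrays of 1 number did. Of the 16 channels, 14 correlated best with the other channel of their own number in their deviations from group means. The differences were mostly small: the median standard deviation (SD) among controls of a dye was 0.12 on the log2 scale, beside 0.067 between arrays, and 15 called genes had an SD above 1. Contrasts restricted to controls that shared slides called 4952 genes (34.2%).

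The files' slide layout lined up with most of the large differences. Controls 1, 2, 5 and 6 lay on slides 1 and 3, and controls 3, 4, 7 and 8 on slides 2 and 4, in the same positions in both array sets, so that slide and control number cannot be told apart. Each set of 4 holds 2 green and 2 red controls. A comparison chosen after this was seen (limma on the 8 control means, with dye as a covariate) called 2457 genes higher (17%) and 2957 lower (20.4%) in controls 3, 4, 7 and 8. Together these are 5414 genes (37.4%). The 4 controls of a set share their slides, so that standard errors and p-values of this comparison leave out variation between slides. A 2-fold difference or more was reached by 36 of the higher and 95 of the lower genes. The count was 5201 on the SQ1 arrays alone and 5505 on the pravastatin arrays alone, and 3558 without control 1.

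The largest differences followed this division with no overlap. Such a lack of overlap was common: it held for 4808 of the 14492 tested genes (33.2%). Paip1, which encodes a partner of the poly(A)-binding protein in translation, had log2 levels of 7.69, 7.38, 7.73 and 7.46 in controls 1, 2, 5 and 6, and of 12.45, 12.67, 12.49 and 12.52 in controls 3, 4, 7 and 8. All 4 values of the second set lie far above the first, a difference of 4.97 ± 0.09 (standard error, SE; limma adjusted p = 5.27e-08). A second Paip1 probe, dimmer on average, went the other way by -0.63, so that the 2 probes of this gene disagree.

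Nlk, a kinase of the Wnt and mitogen-activated pathways, was split as cleanly. Its levels were 6.57, 6.57, 6.48 and 6.54 in controls 1, 2, 5 and 6 against 10.32, 10.29, 10.32 and 10.44 in controls 3, 4, 7 and 8, higher by 3.80 ± 0.05. Its probe is the only named one for the gene, and it was well above background in all 8 channels of slides 2 and 4 and in 5 of the 8 of slides 1 and 3, so that the lower levels lie near background and the size of the difference is less certain. Abcb1b, a drug efflux pump, was higher by 2.33 ± 0.09, at 11.93 to 12.30 against 9.62 to 9.95. Tff1 (a trefoil peptide), Sema3c (a semaphorin) and Fbp2 (the muscle fructose bisphosphatase) were higher by 1.79 ± 0.08, 1.78 ± 0.13 and 1.63 ± 0.11.

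**Figure D2:**
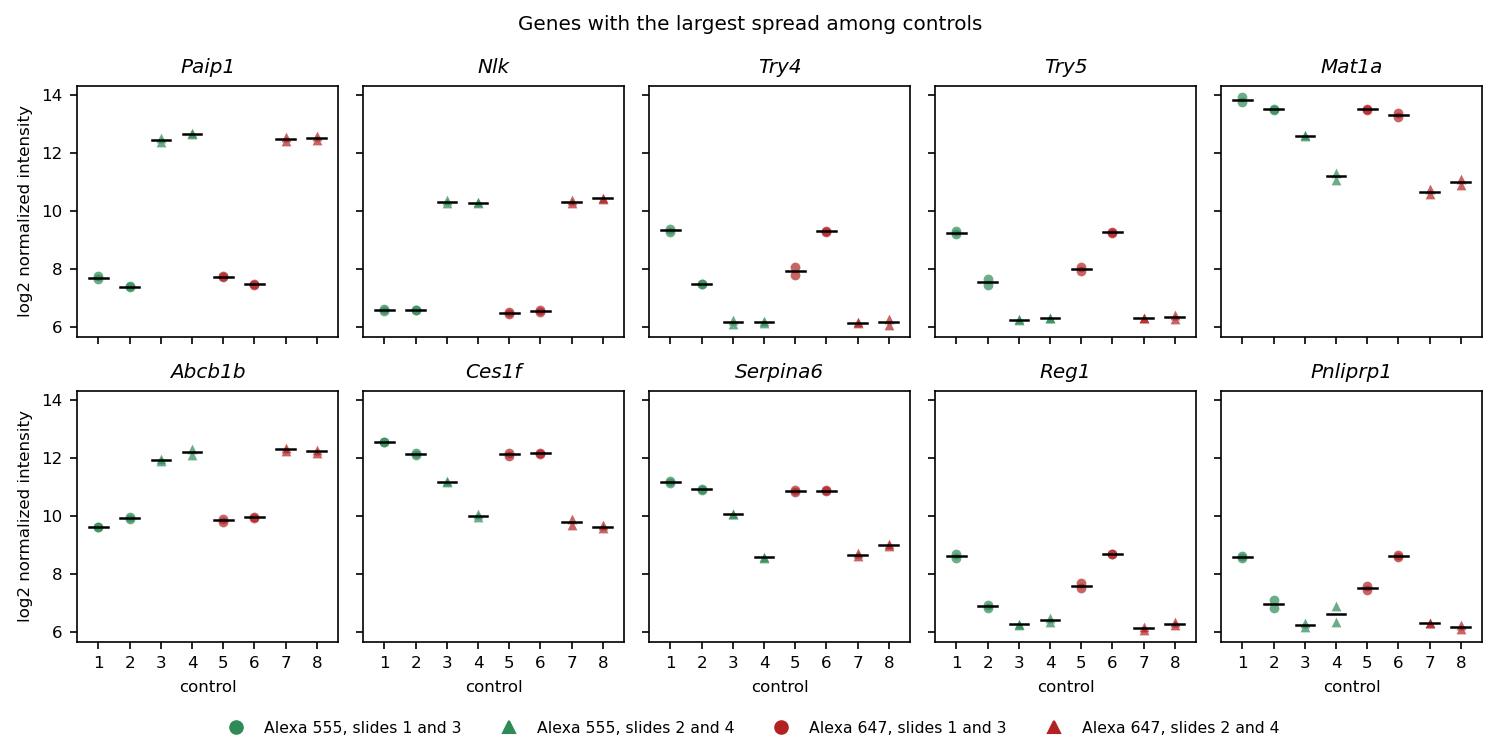
Log2 normalized intensity of the 10 called genes with the largest SD among controls of a dye, for controls 1 to 8; each point is 1 array, each bar the mean of a control's 2 arrays, colour gives the dye and shape the slides. Paip1, Nlk and Abcb1b stand higher in controls 3, 4, 7 and 8, the other genes in controls 1, 2, 5 and 6, and repeat arrays lie close together.

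Of the genes with the largest spread, several liver enzymes and carriers were lower in controls 3, 4, 7 and 8. Mat1a, the liver's S-adenosylmethionine synthetase, had levels of 13.85, 13.52, 13.52 and 13.33 in controls 1, 2, 5 and 6, and of 12.61 in control 3 and 10.66 to 11.19 in controls 4, 7 and 8. The sets do not overlap, and control 3 lies between the rest of its set and the other set. The difference was -2.19 ± 0.30 (limma adjusted p = 0.00166). Ces1f, a carboxylesterase, differed by -2.10 ± 0.25 and Serpina6, the corticosteroid-binding globulin, by -1.89 ± 0.28, with control 3 again between. Ugt3a2 and Ugt2b1, both glucuronosyltransferases, differed by -1.67 ± 0.23 and -1.61 ± 0.22, and Akr1c6, a steroid dehydrogenase, by -1.66 ± 0.20.

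The lists of liver metabolism are read against the 20.4% of all genes that were lower. Of 30 genes of the urea cycle and amino acid breakdown, 26 were lower and none higher, with a median difference of -0.62 beside -0.01 for all genes. Otc, which makes citrulline, differed by -1.19 ± 0.21, and Arg1, the arginase that releases urea, by -1.10 ± 0.31. Of 23 cholesterol genes, 21 were lower (median -0.46), among them Insig1 (-1.01 ± 0.14), which retains sterol sensors in the endoplasmic reticulum, and Hmgcs1 (-0.79 ± 0.10). Of 22 fatty acid oxidation genes, 17 were lower and 1, Acot1, higher (median -0.35). Fgf21, a hormone of fasting, differed by -1.25 ± 0.28. Of 17 glucose genes, 12 were lower and 1 higher (median -0.54), of 15 bile acid genes 10 lower (-0.48), of 19 lipid synthesis genes 11 lower (-0.40) and of 23 P450 genes 13 lower and 1 higher (-0.41).

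Of the 34 plasma protein genes, 17 were lower and 2 higher, with a median of -0.18. Alb, at -0.06 ± 0.05, did not pass. It read 18.71 in controls 5, 6 and 7, the highest value that quantile normalization gives, so that differences among these could not show. Trf and Cp were higher by 0.20 ± 0.05 and 0.24 ± 0.07, neither of which passed after loess normalization within arrays. Apoa2, an apolipoprotein of high-density lipoprotein, was lower, at -1.20 ± 0.14, as was Serpinc1, antithrombin, at -0.95 ± 0.15. Of 20 transcription factors and receptors, 6 were lower and 4 higher. Nr1i3 differed by -1.29 ± 0.17 and Ppara, a receptor that drives fat oxidation, by -0.94 ± 0.16. Hnf4a, at -0.26, did not pass. Of 22 respiratory chain subunits, 2 were lower and none higher, and of 30 ribosomal proteins 4 were higher and 1 lower. The ribosomal count ran from 1 to 17 higher over the alternatives.

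Most cell cycle genes were higher in controls 3, 4, 7 and 8, beside 17% of all genes. Of 20 cell cycle genes, 14 were higher and 1 lower, with a median of 0.58. Birc5 (survivin, an inhibitor of apoptosis needed in mitosis) was higher by 1.01 ± 0.23, Cdk1, the mitotic kinase, by 0.84 ± 0.19 and Mki67 by 0.68 ± 0.21. Cdkn1a was the one lower, at -0.18 ± 0.05, but a dimmer Cdkn1a probe went the other way, by 0.11. The Mki67 levels of the sets overlap, since control 6 (11.07) exceeds controls 3 (10.87) and 8 (10.94). Of 35 cytoskeletal and culture-associated genes, 16 were higher, 1, Tubb2a, was lower and 18 did not pass, with a median of 0.22. S100a6, a calcium-binding protein, was higher by 1.00 ± 0.18 and Vim by 0.50 ± 0.14. Without control 1, the counts dropped to 6 of 20 for the cell cycle, 8 of 35 for the cytoskeleton and 5 lower of 23 for the P450 genes, while the medians were 0.51, 0.18 and -0.35. Control 1 was not alone in this. In the same order, the counts were 6, 9 and 6 without control 4, and 7, 9 and 9 without control 5. Without control 6 they were 17, 16 and 14. Among the genes named here, Arg1, Acot1, Cp, Mki67, Cdkn1a, Tubb2a and Vim did not pass without control 1. Genes that did not pass without another control are not listed.

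**Figure D3:**
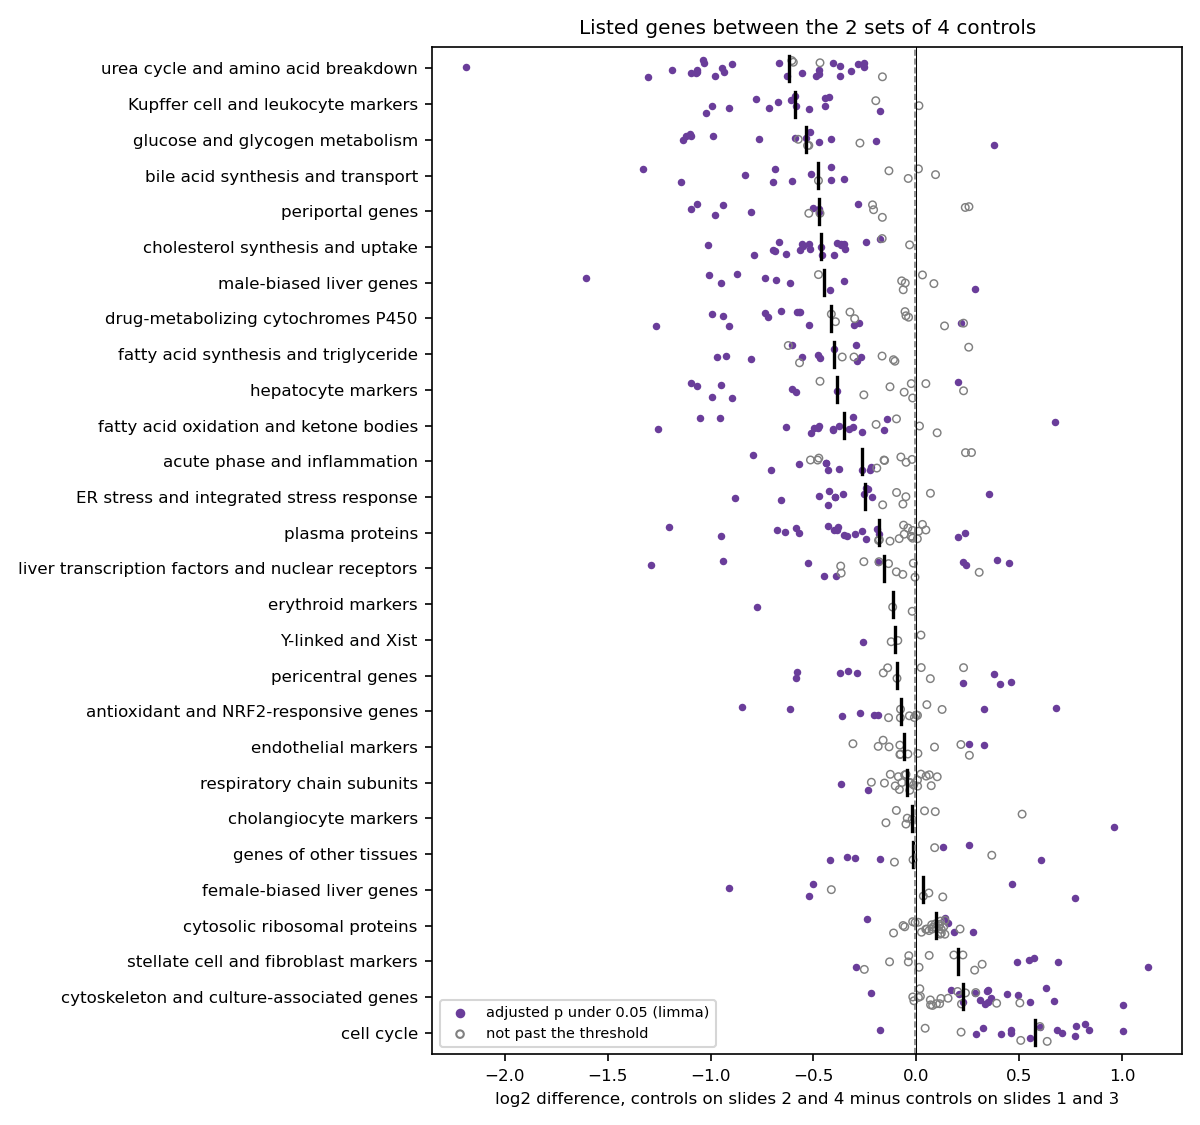
Each row is a gene list and each point a tested gene, placed by its log2 difference between controls 3, 4, 7 and 8 (slides 2 and 4) and controls 1, 2, 5 and 6 (slides 1 and 3); filled points passed an adjusted p of 0.05 in limma and black bars are list medians. The medians run from -0.62 for the urea cycle and amino acid list to 0.58 for the cell cycle list, with the median of all genes (dashed) at -0.01.

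Among markers of other cells, most of the Kupffer cell and leukocyte list was lower in controls 3, 4, 7 and 8. Over all genes, 17% were higher, 20.4% were lower and 9078 of 14492 did not pass. Of the tested markers, 12 of 14 endothelial, 10 of 16 stellate cell and fibroblast and 8 of 9 cholangiocyte markers did not pass. The stellate cell share lies near that of all genes. Kupffer cell and leukocyte markers were lower for 14 of the 16 tested and higher for none, with a median of -0.59. Marco, a scavenger receptor, differed by -1.02 ± 0.09, Cd5l, a protein that macrophages secrete, by -0.91 ± 0.09 and Csf1r, the receptor of their growth factor, by -0.72 ± 0.07. The summed intensity of the 18 markers was 38700 to 44830 in controls 1, 2, 5 and 6 and 25940 to 28980 in controls 3, 4, 7 and 8, without overlap, and S100a8 was above background in neither set. Of 16 stellate cell and fibroblast markers, 5 were higher and 1 lower (median 0.20), with summed levels of 77990 to 104100 against 81250 to 117700 and Gfap above background in neither. Cygb, a globin of stellate cells, was higher by 1.13 ± 0.09 and Dcn, a matrix proteoglycan, by 0.55 ± 0.06. Endothelial markers were higher for 2 of 14 (median -0.06), neither of which passed without control 1. Krt19, a bile duct keratin, was the 1 of 9 cholangiocyte markers called, higher by 0.96 ± 0.14. Of 17 hepatocyte markers, 8 were lower and 1 higher (median -0.38), with summed levels of 2192000 to 2344000 against 1952000 to 2194000. The part of cell composition in the metabolic and cell cycle counts was not tested.

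Genes of the exocrine pancreas gave another order. Try4, a pancreatic trypsinogen, had levels of 9.33 in control 1, 9.29 in control 6, 7.92 in control 5 and 7.47 in control 2, and was not well above background in any channel of controls 3, 4, 7 and 8. The mean of the first 4 was at least 4.85-fold that bound, taken as the lowest signal well above background on each array or the probe's own, whichever was higher. Try5, its near-identical relative, was at least 4.59-fold higher in the same controls, and the 2 may share signal. Both genes passed the filter on dim probes only through the 8 channels of controls 1, 2, 5 and 6, so that no p is given for them. Reg1, a secreted acinar cell protein, had 8.63 and 8.69 in controls 1 and 6, 7.59 in control 5, 6.87 in control 2 and 6.12 to 6.40 in the others. Pnliprp1, a pancreatic lipase relative, had 8.58 and 8.61 in controls 1 and 6 and 7.52 and 6.94 in controls 5 and 2. Controls 1 and 6 were highest and control 5 next for all 4 genes on both array sets.

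A list of 19 exocrine pancreas genes was put together after these values were seen and so is given without a test. Some members, such as Ctrb1 and Cpa1, had the same order, and others did not. Cel read 7.21 in control 3 beside 7.05 in control 5, and Cela2a 7.04 in control 4 beside 6.91 in control 5. Ctrb1, a chymotrypsinogen, had 9.42 and 9.55 in controls 1 and 6, 8.72 in control 5, 8.08 in control 2 and about 7.5 in controls 3 and 4. Cpa1, a carboxypeptidase, had 8.02, 8.00, 7.49 and 6.85 in controls 1, 6, 5 and 2. The summed intensity of the list was 2394 to 5022 in controls 1, 2, 5 and 6 and 1766 to 1847 in controls 3, 4, 7 and 8, and Pnliprp2 and Ptf1a were above background in none. Where this signal came from was not tested.

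Of 10 fetal liver genes tested, 4 had a positive difference between the sets and 6 a negative one. The median of all genes was -0.01, so that this split by sign is no particular trait of the list. Some differences were small, such as Plagl1 at -0.04 ± 0.11 and Peg3 at 0.15 ± 0.08, and the genes below include the largest. Igf2bp3, an RNA-binding protein of fetal and tumour cells, had 10.20, 10.15, 10.10 and 10.26 in controls 1, 2, 5 and 6 and 8.62, 8.58, 8.51 and 8.60 in controls 3, 4, 7 and 8, without overlap. Dlk1, a Notch ligand relative of liver progenitors, had 8.06 to 8.54 against 6.54 to 6.87, and differed by -1.62 ± 0.10. Hmga2, a chromatin protein of fetal cells, was higher in controls 3, 4, 7 and 8, at 11.15 to 11.39 against 10.35 to 10.84, without overlap. Igf2bp1, a relative of Igf2bp3, had 6.85 to 7.16 in these controls against 6.39 to 6.83. Afp, the fetal plasma protein, stood at a percentile of 92.1 and had levels of 13.49 to 14.20 in controls 1, 2, 5 and 6 and 14.08 to 14.50 in controls 3, 4, 7 and 8, which overlap. The fetal list, too, was put together after its values were seen and is given without a test.

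Among the 1000 brightest genes, the 10 with the smallest SD among controls of a dye had an SD of 0.016 to 0.028. They were picked as the smallest of many, and each SD lies below the gene's SD between repeat arrays, which was 0.088 for Eif4h, 0.081 for Gc and 0.034 for Gm5766. Eif4h, a translation initiation factor, lay at 15.93 to 15.97 in controls 1 to 4 and 16.04 to 16.07 in controls 5 to 8. Gc lay at 17.94 to 17.97 and 18.30 to 18.36, Atp5b, an ATP synthase subunit, at 17.37 to 17.45 and 17.46 to 17.50, and Ppp2ca, a phosphatase catalytic subunit, at 15.21 to 15.32 over all 8. The other 6 were 1700073E17Rik, Rnaset2a, Gm6548, Gm5766, Sprr2a2 and Rtraf. Sprr2a2 and Rtraf were read from their brightest probes, at means of 16.77 and 15.70, and their probes disagree: the other 2 of Sprr2a2 read 6.18 and 6.47, the first well above background in 0 of 16 channels and the second in 6, and the other of Rtraf read 8.00.

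Each control number was hybridised beside both drugs' RNA, which allows its readings on the array sets to be compared. Limma with the control number as a block compared the control channel on SQ1 arrays with that on pravastatin arrays. It called 722 genes higher (4.98%) and 1010 lower (6.97%) on SQ1 arrays, 1732 in all (12%), and 9 without the block. The differences were small, with a median size of 0.055 on the log2 scale, and 9 of the called genes reached 1.5-fold. Slides 1 and 2 carried the SQ1 arrays and slides 3 and 4 the pravastatin arrays, and slide 3 was scanned on another day, so that partner RNA and slide cannot be told apart. Within slides 1 and 3, 1161 genes were called and within slides 2 and 4, 6169, and the difference itself differed between these slide pairs for 4676 genes. A loess normalization within arrays called 322 higher and 2578 lower, so that the split between directions depends on the scaling.

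The values of the partner channel are given beside these, since both were read from the same spots. For genes called higher in the control channel, the treated channel was higher on SQ1 arrays for 78.7%, and for genes called lower it was lower for 88.4%, while 45.1% of all tested genes had a higher treated channel there. Among 684 genes whose treated channels differed at least 2-fold between drugs, 219 were called in the control channel, 214 of them with the same sign. Cyp2b10, an inducible P450, had the highest difference. Its control channel read 15.18, 14.84, 14.95, 14.67, 15.46, 15.02, 15.83 and 15.02 for controls 1 to 8 on SQ1 arrays and 14.84, 14.31, 14.41, 14.12, 14.96, 13.87, 15.13 and 13.92 on pravastatin arrays. Every control was higher on its SQ1 array, by 0.68 ± 0.09 on average (limma adjusted p = 0.00175), beside a difference of 2.12 in the treated channel.

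Acot5 and Acot3, acyl-CoA thioesterases, were higher on SQ1 arrays by 0.52 ± 0.04 and 0.43 ± 0.05, beside 2.50 and 2.98 in the treated channel, and Cyp2b9 by 0.48 ± 0.06 beside 2.28. Vmn2r3, a vomeronasal receptor, was higher by 0.41 ± 0.03, beside 0.53. In the other direction, 1500009C09Rik differed by -0.91 ± 0.04 beside -2.44, Hmga2-ps1 by -0.71 ± 0.05 beside -2.39 and Tnfrsf23, a decoy death receptor, by -0.66 ± 0.08 beside -1.89. Krtap10-10 (-0.90 ± 0.18) and Baiap2l2 (-0.72 ± 0.16) had treated-channel differences of about the same size, -0.90 and -0.65. The part of the partner RNA in these control readings was not tested.

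**Figure D4:**
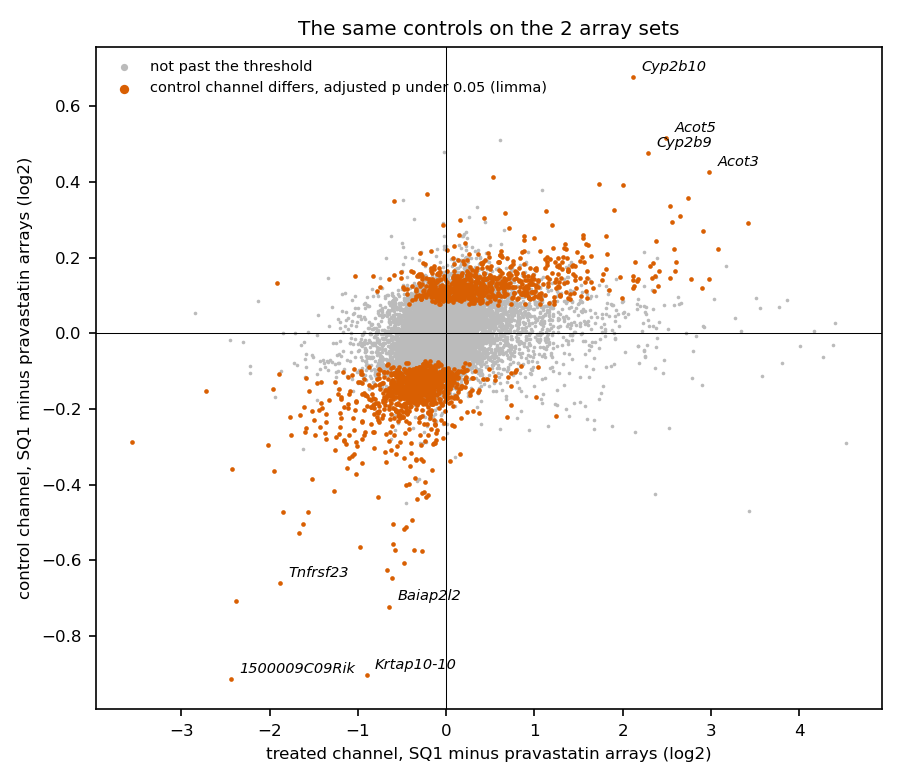
Each point is a tested gene; the x axis is the log2 difference of the treated channel between SQ1 and pravastatin arrays, the y axis the same difference in the control channel, and orange points passed an adjusted p of 0.05 in limma for the control channel. Cyp2b10, Acot5, Cyp2b9 and Acot3 lie at the upper right and 1500009C09Rik and Tnfrsf23 at the lower left.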

How the data were processed

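Each array of the series held RNA of untreated and of drug-treated primary hepatocytes in 2 dyes, and the control channel of all 16 arrays was analysed. The deposited scanner files give median spot and background intensity per channel, left unnormalized, from Agilent Feature Extraction 11.0.1.1 per the file headers. The processed intensity in the same files, which per the file headers had its background subtracted and its dyes balanced, served as an alternative.

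Probes were named through RefSeq accessions: 27234 of 39429 probes matched 20659 genes and 12195 had no name. A gene was represented by its brightest probe. For levels, background was corrected by normexp (offset 50), spots of a probe were averaged and the 16 control channels were quantile normalized in R 4.3.3 with limma 3.58.1. Genes well above background in at least 8 of 16 channels and with a value in all were tested (14492; 6043 were too dim and 124 lacked a value). Limma's lmFit and eBayes with Benjamini-Hochberg adjustment gave 3 tests: an F test among controls of 1 dye, the array set with control number as a block, and, added after the data were seen, the 2 sets of 4 controls on different slides. ± is the limma standard error, and all tests are two-sided. The fits were tested on simulated data. The number of arrays limits the precision.

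The control number pairs the arrays, and it comes from the file and sample labels. Deviations of the 2 arrays of a control from their group means correlated at 0.667 to 0.864 for the 8 controls. These deviations contain the slide pair difference, which other control numbers on the same slides share. All 16 channels correlated best with a channel of their own slide pair, and 14 with that of their own number. Named genes are the 25 brightest, the 3 brightest and the undetected defining members of each of 28 lists, the 10 called genes with the largest and the 10 bright genes with the smallest SD, and the 5 largest array set differences in each direction. After the data were seen, the 10 called genes with the largest slide pair differences in each direction were added. These were picked on the same comparison that gives their size. Further genes of the lists, and the exocrine pancreas and fetal liver genes, were picked after their values were seen. The members, lists and tests were chosen with earlier results of these data known, so that list counts are descriptions beside the share of all genes. Serpina1b, Cyp2a5, Cyp2c40, Cyp3a41a, Mup7, Selenbp2, Gsta1, Cd68 and Hbb-b1 were not matched by name and are not analysed here. Alternatives covered scaling, background correction, filters, dye, slides, thresholds and leaving out each control. Probe sequences and the treated channels' own comparisons are not used here, other than the treated channel's difference between the drugs. Some genes are not reported here by name, though list counts include them.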

Additional observations from a re-analysis of the deposited data

Results flagged for a closer look

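Of 148 tests for a control far from the other 3 of its dye (Dixon's criterion), 3 stood out, and chance gives about 1 in 20. The median percentile of the plasma protein list was 99.77 in control 4, beside 99.83 to 99.84 in the other green controls. The Serpina1a level was 18.407 in control 5, beside 18.429 to 18.43 in the other red controls. The Alb level was 18.597 in control 8, beside 18.713 in each of the other red controls; 18.713 is the highest value that quantile normalization gives to any probe.

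The difference between array sets differed between the slide pairs for 4676 genes (limma interaction of array set and slide pair, adjusted p of 0.05). Of the 12195 probes without a gene name, 4677 (38.4%) were well above background in all 16 control channels, and they enter no comparison above.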

How the results depend on the processing

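The count of detected genes stayed within 1.5 times the main one under all 13 alternatives. Genes that differ among controls of a dye (9469) became 14969 with each probe by itself, 4952 with only controls that share slides and 6024 with green controls only, and 8666 to 9255 with 1 control left out. Genes that differ between slide pairs (5414) became 160 with green and 1716 with red controls only, 2519 at an adjusted p of 0.01, and 3558 (without control 1) to 5194 with 1 control left out. A 75th percentile scaling gave 2136 higher and 2013 lower. Genes that differ between array sets (1732) became 978 with 75th percentile scaling, 2900 with loess and Aquantile, 1090 with no filter on dim probes, 51 with green and 18 with red controls only, 362 at an adjusted p of 0.01 and 6169 with only slides 2 and 4. They numbered 686 to 1519 with 1 control left out: 848 without control 3, 866 without 4, 686 without 7 and 738 without 8. With no replicate block, which leaves out the pairing of arrays by control number, 9 genes were called. Restricting to 1 dye or 1 control fewer leaves fewer samples; for the other settings the cause was not tested. For 21 genes with the largest slide pair differences or spread, all 273 alternative values kept their direction and their side of the threshold. Smaller differences named above did not all keep both. For the 10 genes named between array sets, 129 values kept both and 1 did not: Baiap2l2 lost its call without control 4 (-0.705). All these genes were picked for their size in the same data, so that keeping a call was largely fixed beforehand. Try4 and Try5, given above without a p, are among the 21. Of 336 list medians, 17 moved by more than the spread between controls, mostly with the median over a gene's probes in place of the brightest. Dim genes near background have compressed differences.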
